A study of Mus musculus with 14 samples.

Results

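The comparison is between ventricular border-zone tissue of mouse hearts taken 14 days after the left anterior descending coronary artery was ligated (MI 14 days, 5 arrays) and ventricular tissue of sham mice, which had the surgery without the ligation (4 arrays). These are 9 of the 14 arrays of the series, and they were chosen by their labelled group alone. All mice were male C57BL/6 animals of 8 weeks, and the labels name no transgene and no drug. Each array holds 1 sample, hybridised in 1 colour (Cy3) to an Agilent Mouse SurePrint G3 array. The labels give no harvest time for the sham hearts, so surgery with ligation and time after surgery cannot be told apart. The other 5 arrays (MI 3 days) are hearts taken 3 days after ligation. They entered the same fit and share in its estimate of the spread. They also count in the filter of tested probes and in the choice of each gene's probe. Beyond that they are used here to set the 14 day values beside the 3 day values.

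After the blood supply of a ventricle is cut, the dead muscle is cleared by inflammatory cells and replaced by a scar. Fibroblasts proliferate, turn into matrix-producing cells, and lay down collagens, matricellular proteins and elastic fibres. Surviving muscle at the border of the scar carries more load and is known to re-express foetal genes such as the natriuretic peptides and the slow myosin heavy chain, while genes of fatty acid oxidation and of the respiratory chain are known to be turned down.

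A level is given as the log2 intensity of a probe minus the 75th percentile of its array, so that 0 is that percentile. A change is MI 14 days minus sham on this log2 scale ± its standard error from limma, and a gene rose or fell when its adjusted p (limma, Benjamini-Hochberg over 32261 tested probes) was under 0.05. In bulk tissue, fewer cells of a type and less RNA per cell cannot be told apart. The 75th percentile of the 9 arrays lay between 188.6 and 302.7 intensity units, and 56.63% to 61.79% of the spots were well above background on the 8 of these arrays with scanner output. MI 14 days replicate 3 stood apart from the others on the first principal component (85.79, against 14.19 to 39.91 for the other MI 14 days arrays and -58.71 to -46.13 for the sham arrays). A gene is given by its tested probe with the highest mean level. Another tested probe of the same gene did not pass the test in Cmya5, Cpt1a, Fgf1, Lpl, Pdlim7, Rreb1, Scara5, Tnc and Ube2c. Of 7 cardiomyocyte markers Myh6, Tnnt2, Actc1 and Myl2 did not pass the test (changes from -0.16 to 0.08), while Tnni3, cardiac troponin I, fell (-0.46, adjusted p = 0.0332 in limma), as did Ryr2 (-0.73) and Pln (-0.85). The thymus and lung markers Rag1 and Sftpc were not above background on any of the 8 arrays. Ptcra, also a thymus marker, was above background on 1 sham array and was not tested. Scgb1a1, a marker of the airway, was above background on all 8 and did not pass the test (0.07 ± 0.33, adjusted p = 0.898). None of the 10 tested red blood cell, 5 thymus and 3 airway genes passed the test in limma, and 0 had an unadjusted p under 0.05. Of 13 adipocyte genes 3 rose and 2 fell, and of 12 skeletal muscle genes 1 rose and 4 fell. Of the adipocyte genes 1 rose without MI 14 days replicate 3 or sham replicate 2 and none with the slide as a block, a fit that the arrays with scanner output allow. With that block none of the skeletal muscle genes fell.

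Of 14876 tested named genes, 40.1% were past the threshold at 14 days. The 2362 that rose made up 15.9% of the tested genes and the 3597 that fell made up 24.2%. The rises were larger: 695 genes (4.67%) rose at least 2-fold and 225 (1.51%) fell at least 2-fold. The median change of all named genes was -0.08. Counts of the gene lists below are to be read beside the 15.9% and 24.2%. Over all 32261 probes 12.8% were higher and 19.8% lower, so that 39.2% of the calls were higher. With the scaling percentile taken over tested probes alone that share was 53.0% and the median change of all probes moved from -0.09 to -0.01. With normexp background correction it was 47.4%. With the slide as a block 2136 of the 32261 probes were higher and 2940 lower. The shares over named genes were not counted for that fit. In the main fit the shares over all probes were below those over named genes. The probe counts are thus a low background for list counts with the slide as a block. Values on the 5 MI 14 days and the 4 sham arrays did not overlap for 35.1% of the named genes.

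**Figure D1:**
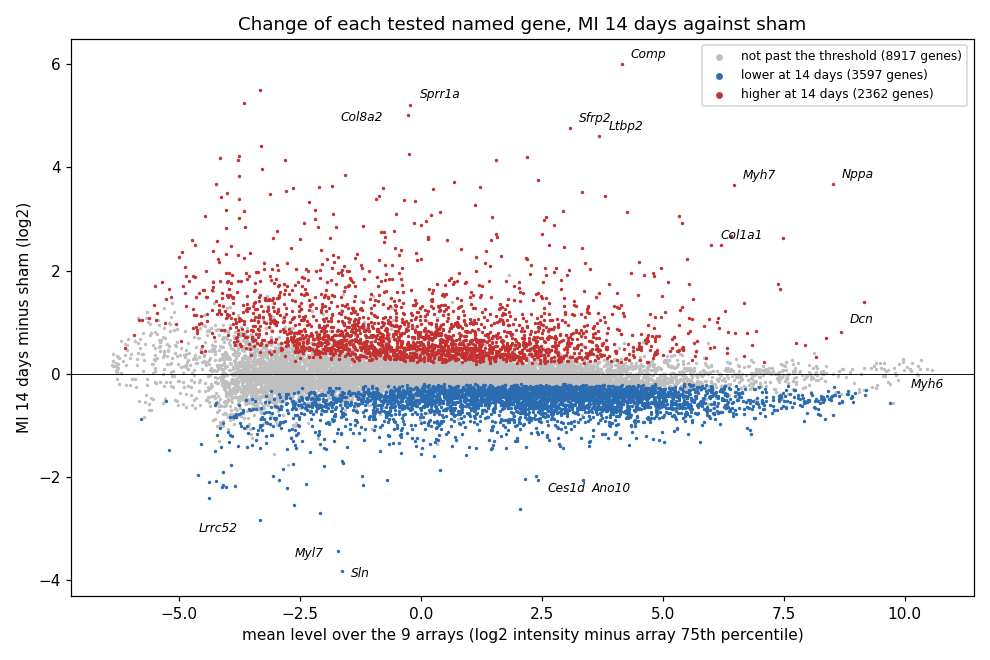
Change of each tested named gene at 14 days (vertical axis, log2) against its mean level over the 9 arrays (horizontal axis, log2 intensity minus the array's 75th percentile), with 1 point per gene and red and blue for the 2362 genes that rose and the 3597 that fell. The largest rises reach 6.00 (Comp), while falls beyond -2 are few and lie mostly among genes of low level.

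Matrix genes were prominent among the largest rises, and several of those code for proteins better known from cartilage and tendon. Of 23 tested cartilage and tendon genes 13 rose and 3 fell, with a median change of 1.21. Comp, the cartilage oligomeric matrix protein, was at 1.13, 0.52, 0.37 and 1.25 in the sham arrays and at 6.52, 6.93, 7.64, 6.93 and 6.06 in the MI 14 days arrays. The lowest of the 5 infarcted hearts thus lay far above the highest sham heart. Cilp, a protein of the cartilage intermediate layer, rose by 3.76 ± 0.21 (adjusted p = 2.68e-07), Fmod, the collagen-binding proteoglycan fibromodulin, by 3.72 ± 0.29, and Thbs4, a thrombospondin of tendon and stressed heart, by 3.52 ± 0.20. Acan, the large aggregating proteoglycan of cartilage, went from between -3.42 and -3.03 in sham to between -1.62 and -0.55. Sox9, the transcription factor of the cartilage lineage, rose by 2.24 ± 0.31 and Scx, that of the tendon lineage, by 1.30 ± 0.17; both were chosen after their values were seen, as were Col5a2 and Col3a1 below. The 3 members that fell were Wif1, a secreted inhibitor of Wnt ligands (-1.21 ± 0.14), Sox6 (-1.18 ± 0.25), a partner of that factor in cartilage, and Alpl, an alkaline phosphatase of mineralising tissue (-0.85 ± 0.13).

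**Figure D2:**
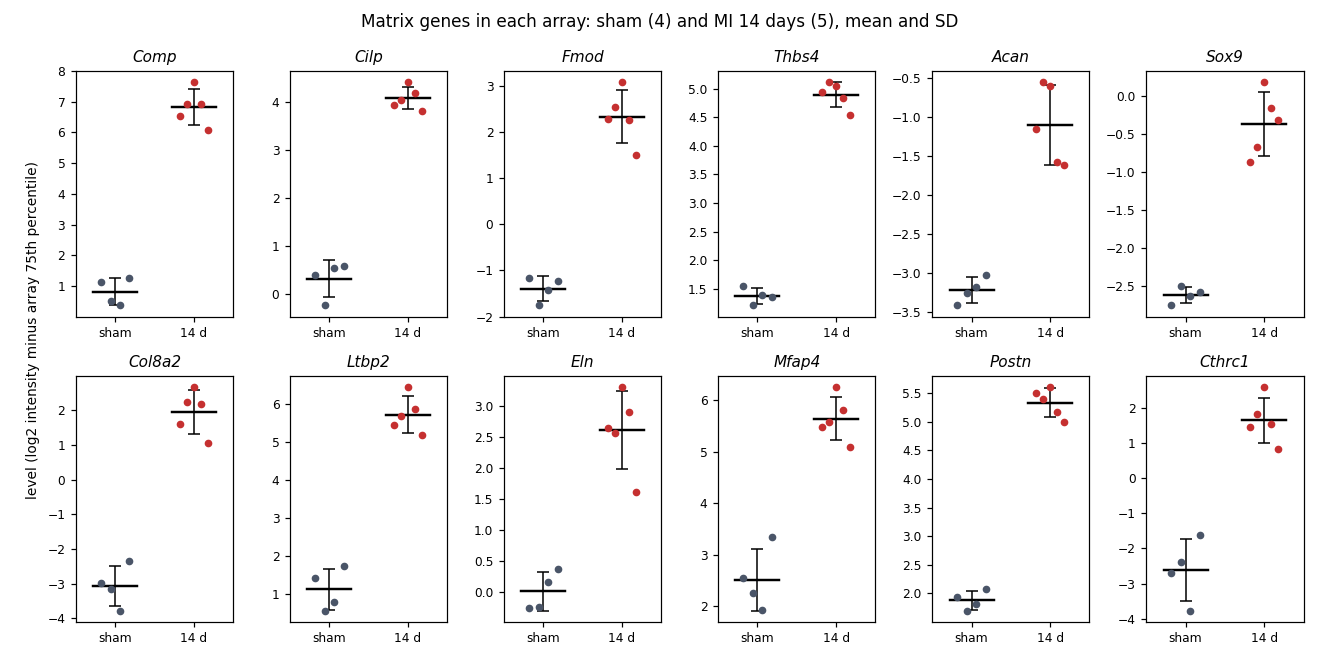
Levels of 12 matrix genes (log2 intensity minus the array's 75th percentile), with a point for each sham array (grey, 4) and MI 14 days array (red, 5), and the mean and SD as bars; the vertical scale differs by gene. In each of the 12 genes the highest sham array lies below the lowest MI 14 days array. The genes were picked among large rises, in part by a rule that asks for this. Over all named genes the groups did not overlap for 35.1%.

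Collagen chains followed, with 23 of 29 tested members higher and 1 lower (median 1.55). Col8a2, a short-chain collagen, was between -3.78 and -2.36 in sham and between 1.05 and 2.67 at 14 days (5.02), but its other tested probe changed by 0.83 and did not pass the test. Col22a1, a collagen of tissue junctions, rose by 3.32 ± 0.47 and Col5a2, a regulator of fibril diameter, by 3.07 ± 0.20. The main fibrillar chains were already high in sham: Col3a1 lay at 4.67 to 5.08 there and at 7.10 to 7.85 at 14 days (2.67 ± 0.15), and Col1a1 at 4.33 to 4.92 and 6.49 to 7.54. The cartilage collagens Col2a1 and Col11a1 were not above background on any sham array and were above it at 14 days on each of the 4 arrays with scanner output, so their rises are bounds (Col2a1 at least 11.2-fold and Col11a1 at least 8.28-fold). The member that fell, Col9a1 (-0.60 ± 0.18), overlapped between the groups and lost its call in 11 alternatives.

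Of 33 enzymes that fold, trim and cross-link collagen 25 rose and 1 fell (median 0.53). Lox, the lysyl oxidase that starts the cross-links, lay between -3.21 and -2.42 in sham and between -0.19 and 1.49 at 14 days, and its relative Loxl3 rose by 2.95 ± 0.22. Adamts2, which cuts the amino propeptide off procollagen, rose by 2.16 ± 0.17. When the slide was fitted as a block 14 of the 33 rose, beside 20 of the 29 collagen chains.

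Of 26 elastic fibre and microfibril genes 18 rose and 2 fell (median 1.38). Eln, elastin itself, was at -0.26, -0.23, 0.16 and 0.38 in sham and at 2.65, 2.57, 3.30, 2.90 and 1.61 at 14 days (2.60 ± 0.29, adjusted p = 4.19e-05). The microfibril-associated Mfap4 rose by 3.13 ± 0.30, Fbln7 by 2.29 ± 0.36 and the latent TGF-beta binding protein Ltbp2 from between 0.57 and 1.73 to between 5.18 and 6.46. The interface proteins Emilin2 (-0.73 ± 0.17) and Emilin3 (-0.62 ± 0.15) fell, the latter not with the slide as a block (adjusted p = 0.0584). Of 26 proteoglycans 17 rose and 1 fell (median 0.73), among them the small leucine-rich Aspn (2.29 ± 0.27) and Omd (1.99 ± 0.28). Dcn, decorin, one of the most steadily measured of the small changes, rose from 8.15 to 8.28 in sham to 8.89 to 9.21 (0.81 ± 0.08, adjusted p = 1.4e-05).

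Matricellular proteins, which sit in the matrix and signal to cells, rose in 16 of 22 cases and fell in none (median 1.76). Postn, periostin, the marker of activated fibroblasts, was between 1.70 and 2.08 in sham and between 4.99 and 5.60 at 14 days. Cthrc1, a secreted protein of collagen-producing cells, went from between -3.77 and -1.63 to between 0.83 and 2.59. Spp1, osteopontin, rose by 3.65 ± 0.28, and Tnc, tenascin C, which no sham array showed above background, was at least 4.23-fold higher. Among 33 matrix proteases and inhibitors 16 rose and 3 fell (median 0.50). Mmp2 (2.02 ± 0.17) and Mmp14 (1.81 ± 0.17), a gelatinase and the membrane protease that activates it, rose beside the inhibitor Timp1 (3.04 ± 0.17). The heart-rich inhibitor Timp4 fell from between 2.28 and 2.97 to between 0.94 and 2.28.

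Genes of the fibroblast's own signalling rose in part. Of 27 TGF-beta and activin genes 15 rose and 2 fell (median 0.39). The ligand Tgfb3 was at 2.48, 2.21, 2.18 and 2.62 in sham and at 4.29, 4.39, 4.64, 4.64 and 4.06 at 14 days, and Tgfb2 rose by 1.94 ± 0.21. Tgfb1, named after its values were seen, changed by 0.11 ± 0.10 (adjusted p = 0.431). The activin antagonist Fst rose by 2.65 ± 0.34 and the SMAD corepressor Tgif1 by 1.58 ± 0.16, while Inha, an inhibin subunit, fell (-0.88 ± 0.11). In the fit with the slide as a block 8 of the 27 rose.

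Secreted Wnt modulators went both ways, 6 of 19 higher and 3 lower (median 0.16). The frizzled-related Sfrp2 rose from between -0.02 and 0.87 to between 4.01 and 5.87, and Frzb (3.59 ± 0.28), Dkk3 (2.71 ± 0.26) and Sfrp1 (2.65 ± 0.19) rose with it. Sfrp5, of the same family, fell from between -0.75 and -0.56 to between -2.90 and -1.61 (-1.73 ± 0.23, adjusted p = 0.000161). Of 15 insulin-like growth factor genes 8 rose and 2 fell (median 0.82), including Igf1 (1.19 ± 0.16), its binding proteins Igfbp6 (1.17 ± 0.18) and Igfbp4 (1.06 ± 0.14), and Stc2, an inhibitor of the protease that frees it (1.45 ± 0.24). Leaving out MI 14 days replicate 2 or 3 or sham replicate 1, 3 or 4 left 1 that fell, and none fell with the slide as a block. BMP ligands and antagonists rose in 8 of 20 cases and fell in none (median 0.28): the ligand Gdf6 was at least 3.4-fold and the antagonist Chrdl1 at least 3.9-fold higher, and the target Id2 rose by 1.08 ± 0.17.

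Resident fibroblast genes rose in 13 of 28 cases and fell in 3 (median 0.31). Pi16 (1.45 ± 0.19) and Dpt (1.43 ± 0.32), markers of adventitial and quiescent fibroblasts, rose, as did Tcf21, the transcription factor of the cardiac fibroblast lineage (1.14 ± 0.24), and Scara5, a ferritin receptor, fell (-0.95 ± 0.24). Sham replicate 3 was low for Dpt, at 0.21, with the other sham arrays at 1.92 or above. With the slide as a block 6 rose, and Pdgfra, the receptor that marks the lineage (0.48 ± 0.12), lost its call. The smooth-muscle-type contractile genes that mark myofibroblasts rose in 7 of 23 cases and fell in 3 (median 0.30). Without sham replicate 3 the number that rose was 4, without MI 14 days replicate 5 it was 11, and with the slide as a block 2. Pdlim7 (0.96 ± 0.12) and Cald1, caldesmon (0.79 ± 0.12), rose. Acta2, smooth muscle actin and the textbook myofibroblast marker, was at 4.56 to 5.28 in sham and 4.44 to 5.06 at 14 days (-0.28 ± 0.17, adjusted p = 0.238), and Myh11, the smooth muscle myosin, changed by 0.18 ± 0.16 (adjusted p = 0.415).

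**Figure D3:**
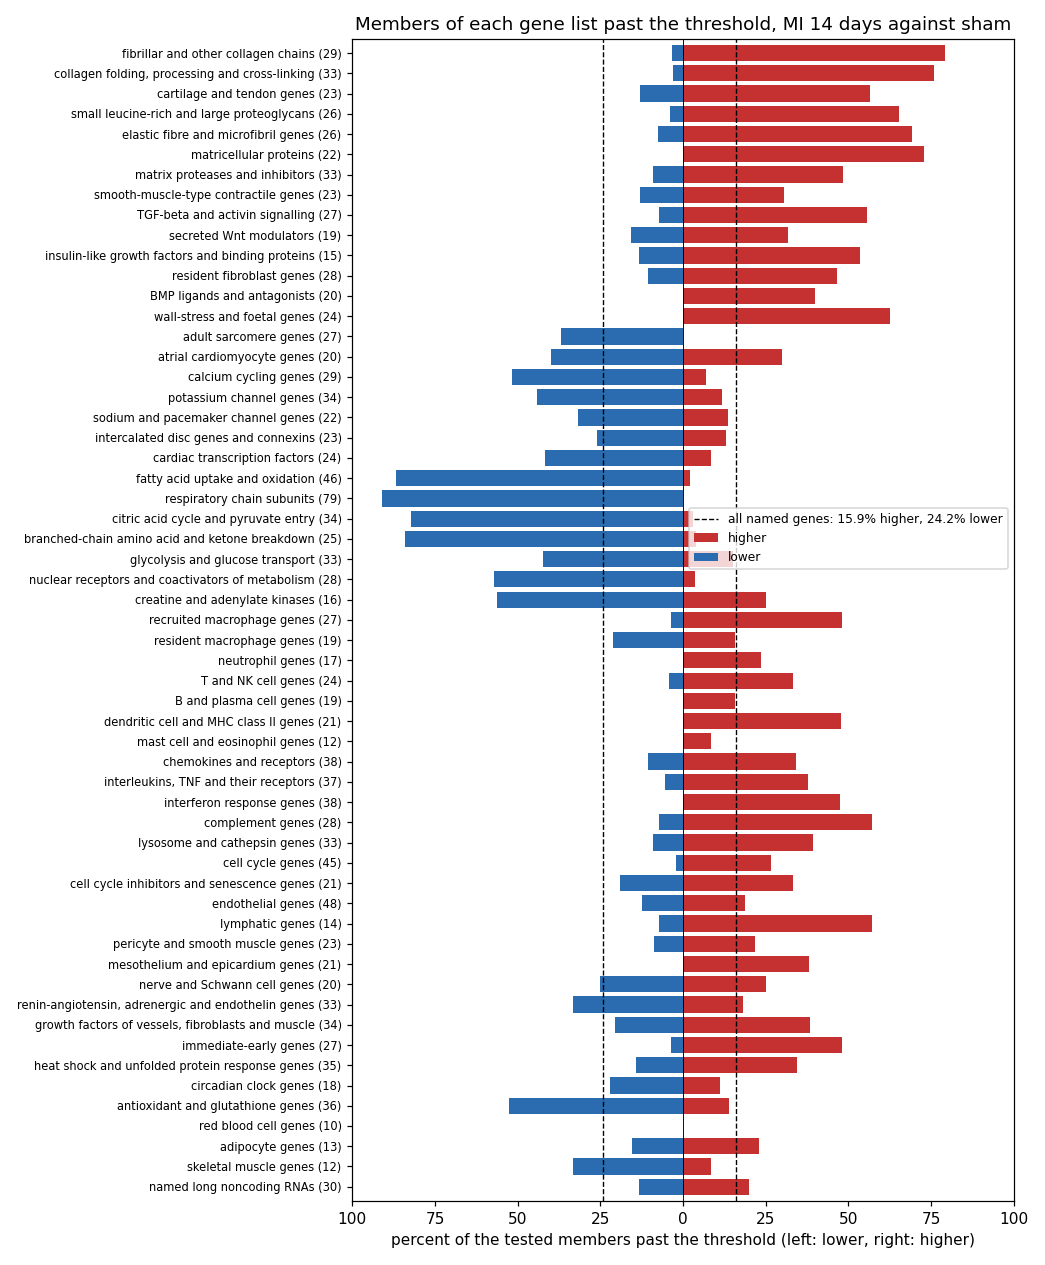
Share of the tested members of each gene list that rose (red, right) or fell (blue, left) at 14 days, in percent, with the number tested in brackets and, as dashed lines, the shares over all named genes (15.9% higher and 24.2% lower). Matrix lists reach furthest to the right and metabolic lists furthest to the left; lists with under 10 tested members are left out.

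The foetal and wall-stress genes of cardiomyocytes rose in 15 of 24 cases and fell in none (median 0.64). Nppa, the atrial natriuretic peptide, was at 6.30, 6.37, 6.40 and 6.83 in sham and at 9.76, 10.14, 10.53, 10.10 and 10.19 at 14 days. Myh7, the slow myosin heavy chain, was at 4.52, 4.71, 4.05 and 4.46 in sham and at 7.22, 7.90, 9.12, 7.94 and 8.27. No infarcted heart overlapped with a sham heart in either gene. Nppb, the brain natriuretic peptide, rose from between 4.68 and 5.14 to between 7.08 and 7.55 (adjusted p = 3.05e-07) and Gdf15, a stress cytokine, by 3.28 ± 0.32. Ankrd1, a stretch-responsive nuclear and sarcomeric protein named after its values were seen, rose by 1.75 ± 0.14 and Acta1, skeletal actin, by 1.37 ± 0.24.

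The promoters of 4 of these genes are shown because they hold the M-CAT motif, CATTCC, the textbook binding site of TEAD factors in genes that the loaded heart re-expresses. They were chosen after their values and letters were seen. Each runs 5′ to 3′ on the strand of its gene from 250 bases before to 50 after the start, from RefSeq on GRCm38.p6, with the motif on either strand in capitals. Acta1 is on the reverse strand at chr8:123894726-123895025, Ankrd1 on the reverse strand at chr19:36119795-36120094, Myh7 on the reverse strand at chr14:54994577-54994876 and Nppb on the forward strand at chr4:147985650-147985949.
Acta1: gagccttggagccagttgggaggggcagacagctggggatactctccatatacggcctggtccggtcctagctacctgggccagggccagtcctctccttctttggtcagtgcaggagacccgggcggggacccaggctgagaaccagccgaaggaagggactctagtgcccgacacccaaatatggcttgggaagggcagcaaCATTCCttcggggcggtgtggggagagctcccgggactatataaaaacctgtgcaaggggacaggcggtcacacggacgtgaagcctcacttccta
Ankrd1: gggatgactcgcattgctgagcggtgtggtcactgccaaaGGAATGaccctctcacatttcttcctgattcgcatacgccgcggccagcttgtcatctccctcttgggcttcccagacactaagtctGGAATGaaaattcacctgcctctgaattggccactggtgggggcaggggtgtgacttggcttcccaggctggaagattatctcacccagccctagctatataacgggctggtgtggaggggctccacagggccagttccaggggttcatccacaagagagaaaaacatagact
Myh7: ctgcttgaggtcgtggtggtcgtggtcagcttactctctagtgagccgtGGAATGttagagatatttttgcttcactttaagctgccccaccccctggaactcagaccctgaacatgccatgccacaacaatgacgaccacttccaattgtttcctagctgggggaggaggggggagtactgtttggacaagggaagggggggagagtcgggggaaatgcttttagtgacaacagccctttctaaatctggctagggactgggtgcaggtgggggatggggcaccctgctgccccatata
Nppb: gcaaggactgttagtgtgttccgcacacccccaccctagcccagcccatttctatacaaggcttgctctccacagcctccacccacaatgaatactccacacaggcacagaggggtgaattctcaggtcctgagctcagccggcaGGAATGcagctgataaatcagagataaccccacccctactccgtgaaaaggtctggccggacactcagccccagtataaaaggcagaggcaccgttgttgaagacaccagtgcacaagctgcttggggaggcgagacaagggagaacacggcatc

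Acta1 holds the motif once on the printed strand, Ankrd1 2 times on the other strand, and Myh7 and Nppb once each on the other strand. Of the 22 wall-stress and foetal genes whose promoter RefSeq gives, 8 hold it in this window, against 14.7% of all 32851 promoters of this length. A match is a string of 6 letters and does not show binding. The Acta1 window also holds a CArG box, the motif of serum response factor, which 1.63% of all promoters hold. Of these 22 genes 2 hold it in at least 1 promoter, again a count per gene.

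Of 27 adult sarcomere genes none rose and 10 fell (median -0.30). On slide 1 and slide 3, each with arrays from MI 14 days and sham, 20 and 23 of the 27 were below sham. Those arrays also entered the main fit. Myh6, the adult myosin heavy chain, was at 9.80, 10.30, 9.97 and 10.19 in sham and at 10.16, 10.18, 9.90, 10.05 and 10.47 at 14 days. The groups overlapped throughout (0.08 ± 0.14, adjusted p = 0.671). Among the falls were the Z-disc proteins Myot (-1.39 ± 0.11) and Mypn (-0.99 ± 0.12), Cmya5, a costameric anchor (-0.76 ± 0.16), and Ldb3, a Z-disc scaffold (-0.65 ± 0.13). Of 20 genes known from atrial cardiomyocytes 6 rose and 8 fell. Myl7, the atrial light chain, was at 0.54, 0.49, -1.77 and 1.50 in sham and at -4.02, -3.97, -1.79, -3.65 and -2.78 at 14 days. Myl4 fell too (-1.99 ± 0.38), and so did Sln, sarcolipin (-3.82 ± 1.05, adjusted p = 0.0132). In these 3 genes sham replicate 3 was the lowest sham array, MI 14 days replicate 3 was the highest of its group, and in Myl4 and Sln the latter lay above the former. How much atrium each sample held was not measured.

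Calcium cycling genes fell in 15 of 29 cases and rose in 2 (median -0.51). Atp2a2, the calcium pump of the sarcoplasmic reticulum, was at 8.96, 8.95, 8.87 and 9.04 in sham and at 8.26, 8.16, 7.64, 8.11 and 8.64 at 14 days (-0.80 ± 0.15, adjusted p = 0.00163). Its inhibitor Pln fell by a like amount (-0.85 ± 0.21), as did Ryr2, the release channel (-0.73 ± 0.16), and the largest fall was of Casq1, a calcium-binding protein of the reticulum (-1.16 ± 0.24). The 2 that rose, Fkbp1b, a partner of the release channel (1.01 ± 0.21), and Sri, sorcin (0.32 ± 0.11), lost their calls with the slide as a block, when 10 genes of the list fell and none rose. Sri lost its call in 11 of the 19 alternatives. The number that rose was 4 without MI 14 days replicate 5, and 1 without MI 14 days replicate 2, 3 or 4 or sham replicate 1, 2 or 3.

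Of 34 potassium channel genes 15 fell and 4 rose (median -0.37), and 9 fell with the slide as a block. The silent subunit Kcnv2 went from between -0.15 and 0.30 to between -2.74 and -1.51, Kcnj12, an inward rectifier of the ventricle, fell by 0.97 on the log2 scale (SE 0.18) and Kcnh2, the rapid delayed rectifier, by 0.96 (SE 0.19). Those that rose included Kcnma1, the large calcium-activated channel (at least 4.95-fold higher), and Kcnj15 (1.95 ± 0.20). Of 22 sodium and pacemaker channel genes 7 fell and 3 rose, beside 24.2% and 15.9% of all named genes. Without MI 14 days replicate 3 the number that fell was 4. The list's median of -0.07 turned to 0.01 with the percentile over tested probes. Scn4b, a sodium channel beta subunit, was at 2.37 to 2.70 in sham and 1.18 to 1.56 on 4 of the MI 14 days arrays, with replicate 3 at 0.10. Fxyd6, a regulator of the sodium pump, rose by 1.75 ± 0.17. Of 24 cardiac transcription factors 10 fell and 2 rose (median -0.29), 6 and 3 without MI 14 days replicate 3 and 4 and 1 with the slide as a block. Tbx5 fell from between 2.13 and 2.39 to between 0.46 and 1.33, Hand2 from between 2.04 and 2.37 to between 0.66 and 1.47 and Hopx by 1.12 on the log2 scale (SE 0.20), and the epicardial factor Tbx18 rose by 0.82 ± 0.14. Without sham replicate 2 6 of the 24 fell, and 1 rose on leaving out that array, sham replicate 3 or 4, or MI 14 days replicate 2, 4 or 5. Of 23 intercalated disc genes 6 fell and 3 rose (median -0.13), near the 24.2% and 15.9% of all named genes. With the slide as a block 1 fell and 1 rose, and 1 rose without sham replicate 1, sham replicate 4 or MI 14 days replicate 4. Cdh11, a cadherin of fibroblasts, rose (1.47 ± 0.19).

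Energy metabolism held the lists with the largest share of falls. Of 79 nuclear-encoded respiratory chain subunits 72 fell and none rose, each by a small amount (median -0.53); at an unadjusted p under 0.05 in limma 76 were lower and 0 higher. Ndufs1, the largest subunit of complex I, was at 7.72, 7.70, 7.62 and 7.71 in sham and at 7.07, 7.03, 6.64, 6.96 and 7.20 at 14 days (-0.71 ± 0.11, adjusted p = 0.000532). The sham values lay close together, and every infarcted heart lay below them. Uqcrc1, a core subunit of complex III, fell by 0.79 on the log2 scale (SE 0.13). The list's median by array was -0.52, -0.51, -0.85, -0.50 and -0.19 for replicates 1 to 5. With the slide as a block 32 of the 79 fell. All 79 lay below sham within each of the 2 slides that hold both groups (medians -0.49 and -0.66). The arrays of these slides also entered the main fit, so this is no separate evidence. Over all named genes 24.2% fell.

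Fatty acid genes fell in 40 of 46 cases and rose in 1 (median -0.76). Plin5, which coats the lipid droplets of the heart, was at 6.62, 6.42, 6.28 and 6.68 in sham and at 5.22, 4.96, 4.85, 5.29 and 5.53 at 14 days (-1.33 ± 0.14, adjusted p = 2.95e-05). Pdk4, the kinase that shuts off pyruvate dehydrogenase when fat is burned, fell (-1.28 ± 0.33), as did Acsm5, a medium-chain acyl-CoA synthetase (-2.21 ± 0.46), and Acot1, an acyl-CoA thioesterase (-1.29 ± 0.28). Cpt1a, the liver form of the carnitine transferase, was the member that rose (0.38 ± 0.11). The calls of Acsm5, Acot1 and Cpt1a were lost with the slide as a block, when 20 of the 46 fell.

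The same direction held in the citric acid cycle, where 28 of 34 genes fell and 1 rose (median -0.59), and in the breakdown of branched-chain amino acids and ketones, where 21 of 25 fell and 1 rose (median -0.74). Pdp2, the phosphatase that switches pyruvate dehydrogenase on, was between 2.14 and 2.40 in sham and between 0.37 and 1.20 at 14 days. Dlat, a core subunit of that complex, fell (-0.89 ± 0.15), and Pdk3, a kinase that turns it off, rose (0.57 ± 0.14), the latter not with the slide as a block (adjusted p = 0.115). Bckdhb, of the branched-chain keto acid dehydrogenase, went from between 4.80 and 5.00 to between 3.49 and 4.12, and Aldh6a1 (-0.94 ± 0.15) and Ivd (-0.93 ± 0.15), enzymes of later steps, fell beside it. Fitted with the slide as a block, 19 of the 34 and 15 of the 25 fell.

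Glycolysis and glucose transport split: 14 of 33 genes fell and 5 rose (median -0.23). The number that rose was 3 when replicate 3 of either group was left out, and with the slide as a block 8 fell and 3 rose. Hk2, the muscle hexokinase, was at 5.01, 5.04, 4.96 and 4.77 in sham and at 4.02, 4.01, 3.85, 4.05 and 4.07 at 14 days, the most significant of the changes under 2-fold (-0.95 ± 0.08, adjusted p = 5.48e-06). Slc2a4, the insulin-sensitive glucose transporter (-0.78 ± 0.17), and Pfkfb1 (-1.87 ± 0.15), which sets the level of an activator of glycolysis, fell as well. Slc16a3, the lactate exporter, rose from between -0.49 and -0.03 to between 1.16 and 1.89, and Eno2, the neuronal enolase, by 1.06 ± 0.17. Nuclear receptors and coactivators fell in 16 of 28 cases and rose in 1 (median -0.50), and 10 fell with the slide as a block. Ppargc1a, the coactivator that drives mitochondrial genes, was between 4.86 and 5.27 in sham and between 3.55 and 3.99 at 14 days. Ppara, the receptor that drives fatty acid oxidation (-1.02 ± 0.16), Klf15 (-1.03 ± 0.22) and Esrrb (-0.91 ± 0.13) fell, and Nr1d1, a clock repressor, rose (0.91 ± 0.16). Of 16 creatine and adenylate kinase genes 9 fell and 4 rose, with Ckm, the muscle creatine kinase, at -0.83 ± 0.20 and its brain form Ckb at 0.64 ± 0.14. The call of Ckm was lost with the slide as a block (adjusted p = 0.0764), when 3 of the list fell.

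**Figure D4:**
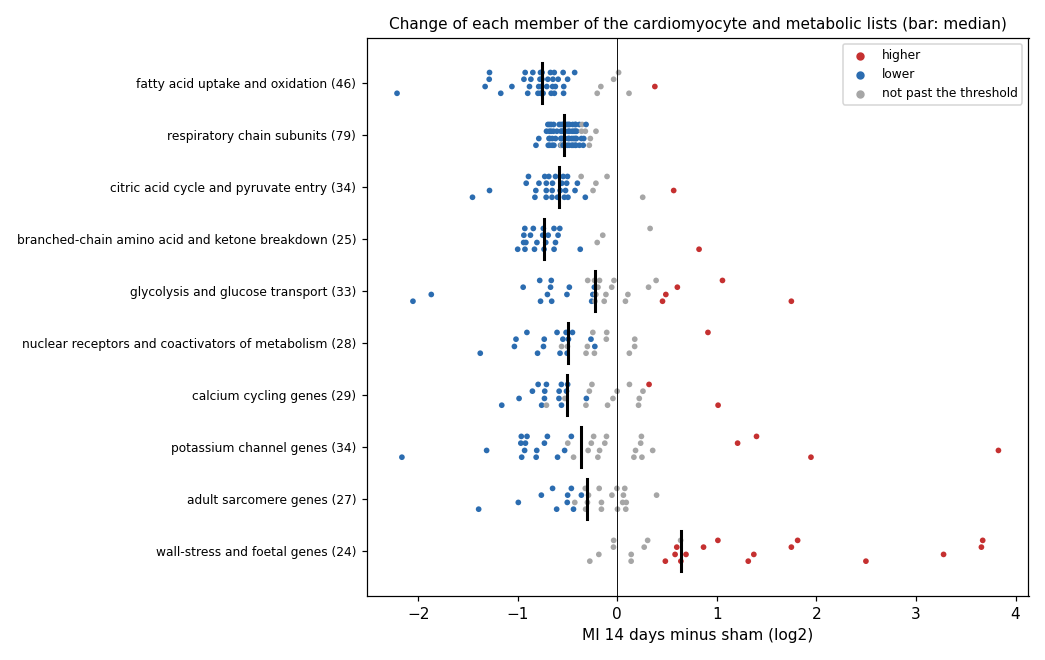
Change of each tested member at 14 days (horizontal axis, log2) in 10 lists of cardiomyocyte and metabolic genes, with 1 point per gene coloured by its call and a bar at the list's median. The 79 respiratory chain points lie in a narrow band left of 0 around the median of -0.53, while wall-stress genes spread to the right up to 3.67.

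Of 36 antioxidant and glutathione genes 19 fell and 5 rose (median -0.42), 14 and 2 with the slide as a block. Gstk1, a mitochondrial and peroxisomal glutathione transferase, was at 5.30, 5.32, 5.34 and 5.30 in sham and at 4.54, 4.28, 3.19, 3.95 and 4.59 at 14 days. Mt1, a metal-binding protein (-0.91 ± 0.16), and Gstm1 (-0.83 ± 0.15) fell, and the secreted Sod3 (0.85 ± 0.11) and Gpx7, a peroxidase of the endoplasmic reticulum (0.84 ± 0.13), rose. Heat shock and unfolded protein genes rose in 12 of 35 cases and fell in 5 (median 0.19), 5 and 5 with the slide as a block. Hspa1a, the inducible heat shock protein, rose from between -1.96 and -1.64 to between -1.06 and 1.71. Pdia4, a reticulum chaperone, rose (1.11 ± 0.11), and Hspd1, the mitochondrial chaperonin (-0.62 ± 0.09), and Herpud1, of reticulum protein disposal (-1.08 ± 0.14), fell.

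Of 27 genes of recruited macrophages 13 rose and 1 fell (median 0.58), with Gpnmb, a protein of phagocytic macrophages, and Lgals3, galectin 3, up from between 1.11 and 1.57 to between 3.26 and 4.69. Lpl, which muscle and fat also make, fell (-0.80 ± 0.14). Of 19 resident macrophage genes 3 rose and 4 fell (median -0.14), near the 15.9% and 24.2% of all named genes. Cd163, a scavenger receptor of these cells, was at least 2.29-fold lower, but its call was lost with normexp background correction. Cbr2 fell (-0.65 ± 0.13), while Gas6, a ligand for clearing dead cells, rose (0.80 ± 0.15). Adgre1, a receptor found on most macrophages, rose (0.68 ± 0.15), and Csf1r changed by 0.27 ± 0.15 (adjusted p = 0.181).

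Neutrophil genes rose in 4 of 17 cases (median 0.12). S100a9, the calprotectin subunit that marks neutrophils, was at 0.72, 1.15, 2.17 and 1.33 in sham and at 0.46, 0.41, 1.35, 2.73 and 1.90 at 14 days (0.03 ± 0.52, adjusted p = 0.976), and S100a8 changed by -0.01 ± 0.54. The members that rose were Il1b (2.61 ± 0.41), an inflammatory cytokine that macrophages also make, Hp, haptoglobin (2.38 ± 0.51), Clec4e (at least 2.08-fold higher) and Mpo (0.72 ± 0.24), and with the slide as a block Hp and Mpo lost their calls. Mpo lost its call in 11 of the 19 alternatives. Lymphoid genes rose in 8 of 24 cases on the T and NK cell list (1 lower) and in 3 of 19 on the B and plasma cell list. The count on the B and plasma cell list is near the 15.9% of all named genes. Of the T and NK cell genes 3 rose with the slide as a block. Cd3d, a T cell receptor chain, rose from between -5.24 and -4.12 to between -3.73 and -2.35. Of the 4 sham arrays 1 showed it above background. The brighter T cell marker Cd3e was above background on all 4 and did not pass the test (0.03, adjusted p = 0.895 in limma). Jchain, of secreted antibodies, rose by 2.84 ± 0.79 with overlapping groups. Antigen presentation genes rose in 10 of 21 cases and fell in none (median 0.47), including Cd74, the invariant chain (0.86 ± 0.19). Without MI 14 days replicate 3 this count was 6, without sham replicate 1 it was 5 and with the slide as a block 4.

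Complement genes rose in 16 of 28 cases and fell in 2 (median 0.56). C4b, a component of the classical pathway, was at 2.55, 2.50, 2.98 and 3.23 in sham and at 4.31, 4.39, 4.69, 4.43 and 4.04 at 14 days, so that the groups did not overlap. Cfb, of the alternative pathway, rose by 1.62 ± 0.31, and the protease Cfi was at least 4.34-fold higher. Of 37 interleukin and TNF genes 14 rose and 2 fell (median 0.22). Il6 rose by 3.48 ± 0.60, Tnfrsf11b, the decoy receptor osteoprotegerin, by 2.43 ± 0.30, and Il33, an alarmin of stromal cells, by 1.56 ± 0.19, while Il15 fell (-1.19 ± 0.23). Of 38 chemokines and receptors 13 rose and 4 fell (median 0.34). Cxcl13, which attracts B cells, was at least 7.17-fold higher, with MI 14 days replicate 3 at 0.82 and the other 4 arrays between -2.62 and -1.63. The 2 tested probes of the constitutive Cxcl12 had opposite calls: the brighter went from between 5.54 and 5.78 to between 4.77 and 5.15 (-0.73), and the other was higher at 14 days (0.76), so no direction is given for the gene. Ccl11, eotaxin, fell by 1.85 on the log2 scale (SE 0.32). Interferon response genes rose in 18 of 38 cases and fell in none (median 0.31), led by Isg15; 11 rose without sham replicate 2 and 3 with the slide as a block. Lysosome genes rose in 13 of 33 cases and fell in 3 (median 0.15), led by Ctsk (2.25 ± 0.17) and Acp5 (1.98 ± 0.25), enzymes of matrix-resorbing cells; 7 rose with the slide as a block.

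Of 45 cell cycle genes 12 rose and 1 fell (median 0.35). Ube2c, a ubiquitin-conjugating enzyme of mitosis, was at -0.95, -1.22, -1.84 and -0.98 in sham and at -0.69, -0.74, 0.13, -0.54 and -0.87 at 14 days. Its rise of 0.71 ± 0.21 was led by MI 14 days replicate 3. Without that array 4 genes of the list rose. The count was 6 without MI 14 days replicate 4, 7 without sham replicate 2 and 3 without sham replicate 3. With the slide as a block none of the 45 rose and none fell at an adjusted p under 0.05 in limma (7 higher and 1 lower at an unadjusted p under 0.05). Of 21 cell cycle inhibitor and senescence genes 7 rose and 4 fell, 4 and 3 with the slide as a block. Their median of -0.07 turned to 0.02 with the percentile over tested probes. Among those that rose was Cdkn2b, which arrests the cycle in response to TGF-beta. It went from between -2.93 and -2.29 to between -1.07 and 0.42.

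Of 48 endothelial genes 9 rose and 6 fell, beside 15.9% and 24.2% of all named genes. The list's median of -0.03 turned to 0.06 with the percentile over tested probes and to 0.08 with quantile normalization. Cdh5, the cadherin of all endothelium, changed by -0.05 ± 0.08 (adjusted p = 0.68). Among the other endothelial markers Pecam1 fell (-0.30, adjusted p = 0.0136 in limma), while Kdr (-0.14) and Tie1 (-0.05) did not pass the test. Plvap, of fenestrated and activated endothelium, rose from between 0.89 and 1.12 to between 1.87 and 3.02 and the adhesion receptor Vcam1 by 1.04 ± 0.19. Gpihbp1, which holds lipoprotein lipase on capillaries (-0.67 ± 0.12), and Rgcc, a cell cycle regulator of endothelium (-0.86 ± 0.17), fell. Of the endothelial genes 5 rose and 2 fell with the slide as a block. Lymphatic genes rose in 8 of 14 cases and fell in 1 (median 0.49), with Vegfd, a lymphatic growth factor (1.81 ± 0.20), Foxc2 (1.34 ± 0.17) and Pdpn (1.35 ± 0.17), which fibroblasts and mesothelium also express; 4 rose and none fell with the slide as a block. Of 23 pericyte and smooth muscle genes 5 rose and 2 fell (median 0.14). Leaving out sham replicate 1 or 2 or MI 14 days replicate 2 or 4 left 2 that rose, leaving out sham replicate 3 or 4 or MI 14 days replicate 3 left 3, and 1 rose with the slide as a block. Rgs4, a G protein regulator of pericytes, rose by 1.26 ± 0.12, and the defining pericyte gene Rgs5 did not pass the test (adjusted p = 0.994). Of 21 mesothelium and epicardium genes 8 rose and none fell (median 0.82), and the defining markers Msln (0.30 ± 0.58) and Wt1 (0.20 ± 0.19) did not pass the test. Of 20 nerve and Schwann cell genes 5 rose and 5 fell, and 3 fell without sham replicate 1 or 2 or MI 14 days replicate 3 or 4. With the slide as a block 3 rose and 2 fell. Ddc (-1.23 ± 0.17) and Dbh (-0.67 ± 0.18), enzymes of catecholamine synthesis, fell, the latter not with the slide as a block, and Uchl1, of axons, rose (1.31 ± 0.12).

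Of 33 renin-angiotensin, adrenergic and endothelin genes 11 fell and 6 rose (median -0.22), 8 and 1 with the slide as a block. Agt, angiotensinogen (-1.07 ± 0.21), the alpha receptor Adra1d (-1.05 ± 0.27) and the phosphodiesterase Pde4d (-1.23 ± 0.15) fell. Ace, the converting enzyme, was at 0.30 to 0.88 in sham and 0.98 to 1.80 at 14 days (0.81 ± 0.20), and Edn1, endothelin, rose by 0.80 ± 0.19, both without a call when the slide was a block; Adcy7, an adenylyl cyclase of immune cells, rose by 1.56 ± 0.16. Of 34 growth factor genes 13 rose and 7 fell (median 0.08), 9 and 4 with the slide as a block. Ptn, pleiotrophin, was at -1.16, -0.68, -0.61 and -0.78 in sham and at 2.62, 3.39, 3.46, 2.71 and 1.94 at 14 days (3.63 ± 0.39, adjusted p = 3.12e-05). Ereg, epiregulin, was at least 5.38-fold higher and Nrg1, neuregulin, a growth factor for cardiomyocytes, rose by 2.10 ± 0.32. Fgf1 (-0.78 ± 0.11) and Egf (-0.91 ± 0.18) fell. Immediate-early genes rose in 13 of 27 cases and fell in 1 (median 0.51), led by Egr2, from between -2.63 and -1.68 to between -0.45 and 0.82, and Zfp36, which destabilises cytokine messages, fell (-0.89 ± 0.17). Of 18 clock genes 4 fell and 2 rose, near the 24.2% and 15.9% of all named genes. Bhlhe40, a repressor of the clock, was among those that rose (0.66 ± 0.09).

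Some of the largest changes were in genes of no list. Sprr1a, a cornified envelope protein also known from stressed cardiomyocytes, was at -3.30, -3.70, -2.62 and -2.82 in sham and at 2.31, 2.03, 2.57, 2.25 and 1.30 at 14 days. Ecrg4, a secreted peptide precursor, rose by 4.14 ± 0.36 and Atp6v0a4, a proton pump subunit, by 3.84 ± 0.50, and the filamin regulator Rflna was at least 10.6-fold higher. Among the falls, Ano10, a calcium-dependent scramblase, went from between 4.06 and 4.77 to between 1.96 and 2.90 on its brighter probe (-2.06 ± 0.18, adjusted p = 8.22e-06), while its other tested probe changed by 0.14 and did not pass the test. Ces1d, a carboxylesterase, fell from between 3.22 and 3.87 to between 0.88 and 1.99, and Arrdc2, an arrestin-domain protein, from between 2.52 and 4.12 to between 0.78 and 1.66. Of the genes that changed under 2-fold with the smallest adjusted p, Cep162, a centriolar protein, rose (0.93 ± 0.08), and the transcription factors Mitf (-0.93 ± 0.09) and Rreb1 (-0.92 ± 0.09) and the nucleotide receptor P2ry2 (-0.94 ± 0.09) fell.

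Of 7401 tested probes of long noncoding transcripts 21.1% passed the test (8.35% in the upward and 12.7% in the downward direction), beside 32.5% of all 32261 tested probes. Of 1717 regions that the array's design names as lincRNA regions and that 2 or more tested probes cover, every tested probe rose in 54 and fell in 76. The region at chr8:57977383-57985712 on the forward strand (mm9) lay at -2.73, -2.77, -2.71 and -2.40 in sham and at -0.56, -0.11, 0.56, -0.23 and -0.65 at 14 days, a rise of 2.45 ± 0.23 in 1 of its 2 tested probes; the other did not pass the test. The one at chr2:108456668-108532418, forward, rose by 2.16 ± 0.15 in its single tested probe, and the one at chr9:66976750-67014625, forward, fell from between -3.26 and -1.91 to between -4.58 and -3.98, also in its single tested probe. Annotation for that build was not used here, so the genes nearest these regions are not named. Of 30 named long noncoding RNAs 6 rose and 4 fell (median 0.08), 8 and 2 without sham replicate 4 and 5 and 2 with the slide as a block. Dnm3os, the host transcript of a microRNA cluster known from fibrosis, rose by 1.71 ± 0.22, and Mirg, of the imprinted locus of Meg3, by 1.23 ± 0.21. Meg3 itself rose from between 1.68 and 1.95 to between 2.66 and 3.72. A transcript antisense to Myh7, Mhrt, fell from between 6.28 and 6.44 to between 4.95 and 5.85. Whether its probe can read the myosin transcript was not tested. Gm10635 (-2.69 ± 0.30), Prr33 (-1.41 ± 0.16) and Gm16062 (-1.35 ± 0.12), annotated as noncoding in the naming table, fell as well.

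Set beside the hearts at 3 days, the 14 day values fell into distinct courses. Changes at the 2 times share the sham arrays, so their likeness is no separate evidence, and the difference between the times (MI 14 days minus MI 3 days) is tested on the infarcted arrays within the same fit. Of the named genes 29.8% were above and 40.4% below sham at 3 days, and 33.6% were higher and 26.9% lower at 14 than at 3 days. The 79 respiratory chain genes had a median change from sham of -1.31 at 3 days (77 lower) and -0.53 at 14 days, and 77 were higher at 14 than at 3 days. For fatty acid genes the medians were -1.58 and -0.76, and for adult sarcomere genes -1.08 (25 of 27 lower) and -0.30. Hand2 was below sham at both times (-1.04 ± 0.16 and -1.13 ± 0.16, with a difference of -0.08 ± 0.15, adjusted p = 0.664), and Ppargc1a was lower at 14 days (-0.90 ± 0.18 and -1.38 ± 0.18, with a difference of -0.48 ± 0.17, adjusted p = 0.0278).

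Of 45 cell cycle genes 42 rose at 3 days (median 3.68) and 42 were lower at 14 than at 3 days. Of 17 neutrophil genes 14 rose at 3 days and 4 at 14 days. Recruited macrophage genes had medians of 2.25 and 0.58, and 22 of 27 were lower at 14 than at 3 days. Of 38 chemokines and receptors 24 were lower and 6 higher at 14 than at 3 days. For 38 interferon response genes the counts were 24 and 3, and for 37 interleukin and TNF genes 21 and 7. For 21 antigen presentation genes they were 11 and 1, and for 33 lysosome genes 21 and 4. The complement and lymphoid lists differed. Of 28 complement genes 15 were higher and 7 lower at 14 than at 3 days. For 24 T and NK cell genes 3 were higher and 4 lower, and for 19 B and plasma cell genes 5 and 4. Spp1 was 9.18 ± 0.28 above sham at 3 days and 3.65 ± 0.28 at 14 days, and Timp1 6.03 ± 0.17 and 3.04 ± 0.17.

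Another group changed direction: these genes were below sham at 3 days and above it at 14 days. Comp had changes of -0.88 ± 0.27 and 6.00 ± 0.27, and the difference between the times was 6.88 ± 0.26 (adjusted p = 9.53e-10). Eln, whose difference between the times was 3.60 ± 0.27, Fmod (-0.82 ± 0.29 and 3.72 ± 0.29), Ecrg4 (-1.13 ± 0.36 and 4.14 ± 0.36), Mmp2 (-0.65 ± 0.17 and 2.02 ± 0.17) and Dcn (-0.56 ± 0.08 and 0.81 ± 0.08) took the same course. Of 23 cartilage and tendon genes 17 were higher and 1 lower at 14 than at 3 days. Collagen chains as a list did not change direction, with medians of 1.58 at 3 days and 1.55 at 14 days. Of the 29 chains 5 were below sham at 3 days, and 13 were higher and 7 lower at 14 than at 3 days. Col1a1 differed by -0.32 ± 0.18 between the times (adjusted p = 0.15 in limma). Nppa rose at both times, by 2.84 ± 0.18 and 3.67 ± 0.18, and was higher at 14 than at 3 days (0.83 ± 0.17, adjusted p = 0.000744).

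**Figure D5:**
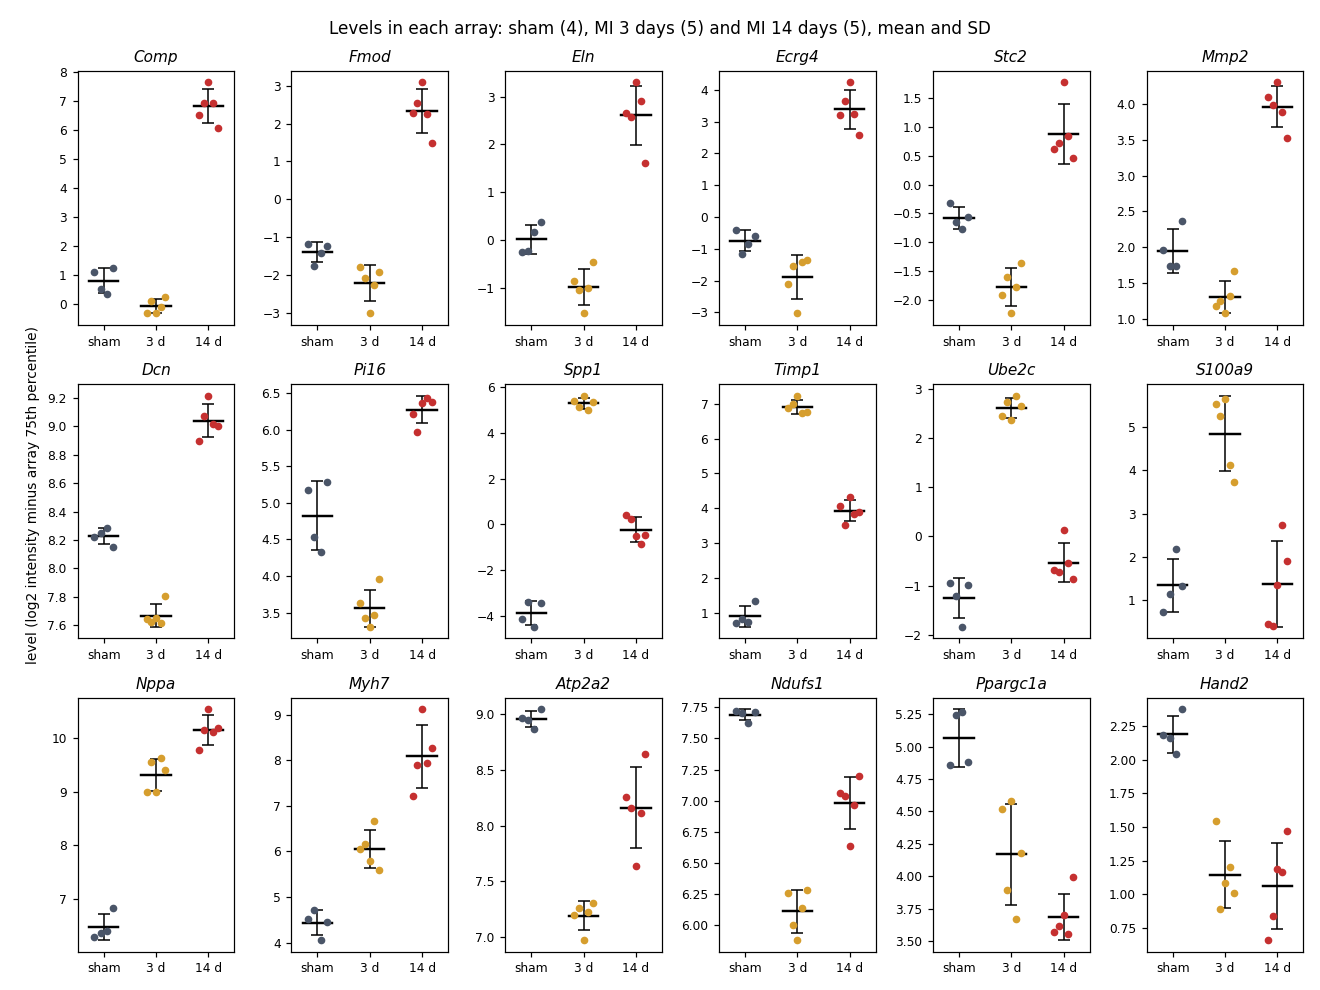
Levels of 18 genes (log2 intensity minus the array's 75th percentile) in each sham (4), MI 3 days (5) and MI 14 days array (5), with means and SDs; the vertical scale differs by gene. The top row and the first 2 genes of the middle row have means below sham at 3 days and above it at 14 days, Spp1, Timp1 and Ube2c peak at 3 days, and Atp2a2 and Ndufs1 are lowest at 3 days.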

How the data were processed

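Ventricular RNA was labelled with Cy3 and hybridised to 1-colour Agilent arrays. The intensity values deposited by the authors are linear processed signals from Agilent Feature Extraction 10.7.3.1, background-subtracted and detrended within each array, per the file headers. They were not scaled between arrays, as their medians show, and limma is named without a role or version in the submitters' processing notes. Here log2 of the deposited intensity was taken, and each array's 75th percentile over 55482 non-control probes was subtracted. A probe was tested when the scanner flagged it well above background throughout at least 1 group (32261 probes). Scanner output was used for 10 of the 14 arrays (all 4 sham, 2 MI 3 days and 4 MI 14 days). A linear model with all 3 groups was run in limma 3.58.1 (R 4.3.3; functions lmFit, contrasts.fit, eBayes; two-sided tests), with Benjamini-Hochberg adjustment over all tested probes and a threshold of 0.05. The labels do not say that each sample was a separate animal, so p-values measure the spread between these samples. The number of arrays limits the precision.

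Probes were named by accession from a RefSeq table (GRCm38.p6): 27201 probes have a gene symbol and 28281 have none. A gene is represented by its tested probe with the highest mean level; of 3792 genes with 2 or more tested probes, 24 had calls in both directions. Where no scanner array of a group showed the probe above background, the fold is a lower bound, the bright group's mean against the higher of the dim probe's signal and the lowest signal well above background on each dim array. Named genes are the 20 largest non-overlapping rises and falls, the 4 largest of each direction in each list, defining markers, the 10 most significant changes under 2-fold, and the largest changes of noncoding transcripts; exceptions are named as such, and not every gene of the rule is printed. The members and gene lists were chosen with earlier results of these data known. The scanner files used here hold no mean signal, so normexp (offset 50) was run on the median signal. Scaling, filter, background, slide, replicate block and leave-one-out alternatives were run. The fit was also run on simulated data with 32261 independent, normally spread probes, 200 of them changed, and no slide effect. There it recovered 77% of changes of 1 and 95% of changes of 2 on the log2 scale, with 8 false calls. In the real data far more probes were called and slides differed, so these are not error rates of the comparison.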

Additional observations from a re-analysis of the deposited data

Results flagged for a closer look

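Of 430 groups of arrays tested for a single far value (215 named genes in sham and in MI 14 days), 20 had one; chance flags about 1 in 20 groups. A value is the gap to the nearest array divided by the range of the group, with critical values of 0.829 for 4 and 0.71 for 5 arrays.

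MI 14 days replicate 3 was the far array in 9 of these, which is also the array that stood apart on the first principal component. It was highest for Acp5 (0.7404), Cxcl13 (0.7127) and Vcam1 (0.7308). It was lowest for Fgf1 (0.8166), Hk2 (0.761), Hopx (0.8226), Il15 (0.7409), Ryr2 (0.7257) and Scn4b (0.7428). MI 14 days replicate 5 was highest for Inha (0.7538), Timp4 (0.744) and Tnnt2 (0.7168) and lowest for Pdgfra (0.7558).

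Among the sham arrays, replicate 3 was lowest for Col22a1 (0.8721), Dpt (0.9541) and Ndufs1 (0.8382), and replicate 2 for Igfbp4 (0.8344). Replicate 4 was highest for Mitf (0.8804) and Nppb (0.8886), and replicate 1 for Fkbp1b (0.8842).

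In 11 named genes with arrays above background in sham and at 3 days the changes from sham at 3 and at 14 days had opposite directions, and the difference between the infarcted groups passed the test in limma. All 11 were higher at 14 than at 3 days. The largest differences, on the log2 scale, were in the matrix genes Comp (6.88) and Fmod (4.538) and in Ecrg4 (5.272). Eln (3.595), Omd (2.89), Pi16 (2.714), Mmp2 (2.663), Stc2 (2.651), Igfbp6 (2.275), Dcn (1.37) and Gas6 (1.149) followed.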

How the results depend on the processing

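Of 10492 called probes 4118 were higher and 6374 lower. When only the 9 sham and MI 14 days arrays were fitted 9119 probes were called, 3601 higher and 5518 lower. Leaving out 1 array gave 8723 to 10795 calls, 3501 to 4164 higher and 5121 to 6631 lower, 940 to 1258 at least 2-fold higher (main 1117), 315 to 590 at least 2-fold lower (main 434) and 1243 to 1674 long noncoding probes (main 1559). In the fit of the scanner arrays with the slide as a block 5076 probes were called, 2136 higher, 2940 lower and 789 long noncoding, and 4814 of the 5076 were among the main calls. Within slide 1, whose only MI 14 days array is replicate 1, 99.47% of the main calls kept their direction. Within slide 3, whose only sham array is replicate 4, 99.89% did. These arrays also made the calls, so the agreement is no separate evidence. With normexp 4040 probes were lower, 451 at least 2-fold higher and 98 at least 2-fold lower, and under the stricter filter, a probe above background on all scanner arrays, 705 and 259. For these counts the cause was not tested, except that fewer arrays and fewer probes entered by construction. The share of calls that were higher was 37.6% with median scaling and 46.7% with quantile normalization. The replicate numbers did not pair the samples (correlations of deviations from -0.135 to 0.225 over 4 numbers); with a replicate block 10383 probes were called, 9517 of them shared with the main calls. Of 200 called named genes 183 kept their call under all 19 alternatives and none reversed direction under them. The call was lost in 16 with the slide as a block (adjusted p from 0.0584 to 0.228 in limma), 6 with normexp and 4 on leaving out some array. Most named genes were picked for large or significant changes in these data, so these counts do not stand for all calls. Of the 10492 main calls 4814 were kept with the slide as a block. Of 1180 values of list medians 52 moved by more than the spread between the MI 14 days arrays. Spots near background limit the dim genes, whose folds are given as bounds.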
